A study of Mus musculus with 22 samples.

Results

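The 7 genes described here are the Notch ligands and receptors measured in mouse neural stem cells (NSCs) by both RNA-Seq and Ribo-Seq: the ligands Jag1, Jag2, Dll1 and Dll3 and the receptors Notch1, Notch2 and Notch3. They were taken by gene symbol and joined between the assays by Ensembl identifier, and are 7 of 20396 genes present in the tables of both assays. The study asked how Musashi RNA-binding proteins change mRNA levels and translation in NSCs, and it comprised 14 RNA-Seq and 8 Ribo-Seq libraries. The NSCs came from mouse embryos of stage E12.5 or E13.5. KH2 cells carry the doxycycline-responsive transactivator m2rTTA in the Rosa26 locus and no Musashi cDNA. The Msi1-inducible line (labelled MSI1, written tetO-Msi1 here) and the Msi2-inducible line (labelled MSI2, written tetO-Msi2) carry the same transactivator and a Msi1 or Msi2 cDNA in the Col1A1 locus. These 3 lines, called tet lines here, were cultured for 72 h with or without doxycycline (Dox). C1 and C4 cells carry floxed alleles of both Msi1 and Msi2, and only C4 cells carry the tamoxifen-inducible CreER. Both were cultured for 48 h with or without 4-hydroxytamoxifen (4-OHT), so that C1 serves as the control for 4-OHT itself. RNA-Seq covered all 5 lines at E12.5 with and without treatment and, at E13.5, untreated KH2 and untreated and Dox-treated tetO-Msi1 cells. Footprints were sequenced only at E12.5, in the KH2 and tetO-Msi1 lines and in both floxed lines. Each condition was 1 library, apart from 2 technical replicates of untreated tetO-Msi1 RNA at E13.5, which were combined. The number of embryos behind a line is not given in the sources used here, so a line may rest on a single derivation.

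Notch ligands sit on the surface of a signal-sending cell and bind Notch receptors on its neighbour. Binding leads to cleavage of the receptor, whose intracellular domain enters the nucleus and works with Rbpj to switch on targets such as the Hes genes. In the developing cortex this exchange keeps radial glia and other NSCs undifferentiated while neighbouring cells that display more ligand become neurons. Jag1 and Jag2 form the Jagged (Serrate-like) ligands and Dll1 and Dll3 the Delta-like ligands. Dll3 differs from the others in acting mainly within the same cell and in not activating Notch in trans. The 3 receptors are large single-pass proteins of related structure.

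Musashi proteins bind RNA at short sites built around UAG, and most often in 3′ UTRs, so these letters were read there. The longest 3′ UTR of each gene in the GENCODE annotation of NCBIM37 was used. Jag1 (ENSMUSG00000027276, chr2:136907192-136942380, minus strand) held 27 UAG in a 3′ UTR of 1568 bases, or 17.2 per kb, against a median of 11.1 per kb over 19381 mouse 3′ UTRs of at least 50 bases. That density was at percentile 90.2 of those 3′ UTRs and was the highest of the 7 genes. Notch2 had 33 UAG in 2923 bases (11.3 per kb) and Notch3 had 11 in 1000 bases (11 per kb), both close to the median. Notch1 had 9.21 per kb, Dll1 8.88, Jag2 6.69 and Dll3 5.29. The Dll3 value rose to 10.9 per kb with the 3′ UTR of the transcript that has the longest coding sequence. The windows below are 30-base stretches of the last exon of each gene, shown because they hold the most UAG among the windows of that 3′ UTR, with ties taken in order from the stop codon and without overlap. For Jag1 4 are shown, since it had the largest TE change of the members. Capitals mark each UAG. Of all 30-base windows in mouse 3′ UTRs, 4.49% held at least 2 UAG. Those shown were picked as the highest of their 3′ UTR, so that share does not measure how rare they are. A match is a description of the letters and does not by itself show binding. The first and the last Jag1 window below overlap stretches that MSI1 protein bound in the gel shifts of the study. That binding was much weaker when their UAG were mutated.
Jag1, chr2:136907416-136907445, minus strand: guUAGaucacuguuUAGauuugccgUAGag
Jag1, chr2:136908720-136908749, minus strand: gcugccgccaUAGgUAGaguuugagggcac
Jag1, chr2:136908411-136908440, minus strand: uggcagccuUAGgaucaUAGuuuuauuuau
Jag1, chr2:136908168-136908197, minus strand: gucaaagUAGaauuuuuguaUAGuuaugua
Jag2, chr12:114147015-114147044, minus strand: caUAGgaggccaaggccgugugcaUAGuuu
Dll1, chr17:15504816-15504845, minus strand: UAGcagaggcgcccgacacugccagccUAG
Dll3, chr7:29078643-29078672, minus strand: ggccagccUAGaacucugUAGaccaggcug
Notch1, chr2:26314345-26314374, minus strand: uccaguguucugUAGUAGuguuuaugggcc
Notch2, chr3:97952855-97952884, plus strand: UAGgaugaUAGuuuucuccucagucaUAGg
Notch3, chr17:32257879-32257908, minus strand: ugccuaaUAGaaauguuuuUAGgcuguuuu

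Reads were counted by the authors in constitutive coding exons, and how much of a gene that covers differed widely between members. All 26 exons of Jag1, all 26 of Jag2 (ENSMUSG00000002799, chr12:114146801-114167706), all 11 of Dll1 (ENSMUSG00000014773, chr17:15504318-15513836) and all 33 of Notch3 (ENSMUSG00000038146, chr17:32257765-32303825) contributed. For Notch2 (ENSMUSG00000027878, chr3:97817461-97954290) 30 of 35 exons were counted. Notch1 (ENSMUSG00000026923, chr2:26313423-26372183) was counted in exon 19 only, a stretch of 202 bases. Dll3 (ENSMUSG00000003436, chr7:29076673-29087257) was counted over 121 bases in 2 of its 10 exons, so its values rest on few reads.

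The summed gene counts were 7889966 to 60791605 per RNA-Seq condition and 657288 to 6381242 per Ribo-Seq library. The induced or deleted genes were checked first. With Dox, Msi1 mRNA rose 5.48-fold in tetO-Msi1 cells at E12.5 (19.7 to 108 RPKM) and 4.11-fold at E13.5, and Msi2 mRNA rose 5.52-fold in tetO-Msi2 cells (23.2 to 128 RPKM). With 4-OHT, Msi2 mRNA fell 8.71-fold in C4 cells (39.5 to 4.54 RPKM) and went from 51.5 to 66.0 RPKM in C1 cells. Msi1 mRNA over the counted exons was 9.46 RPKM in untreated and 9.42 RPKM in treated C4 cells, so that this measure does not show its deletion. Msi1 footprints changed by a log2 of -1.34 in C4 cells (56 and 20 reads), where the median of all genes was -0.14. In C1 cells they changed by -1.52, where that median was -1.45. The study reported depletion of Musashi proteins by Western blot. With Dox in tetO-Msi1 cells, Msi2 mRNA fell 1.59-fold at E12.5 and 2.18-fold at E13.5. Some Ribo-Seq libraries were dominated by single genes, with 66.7% of the counts of untreated KH2 cells on Hes7, 17.9% of those of treated KH2 cells on Rdm1 and 11.1% of those of untreated tetO-Msi1 cells on Tmco1. Deposited RPKM values were not on a common scale between library sets: the median gene was 1.00 higher on the log2 scale in the E13.5 tet libraries, and 1.08 higher in the C1 and C4 libraries, than in the E12.5 tet libraries. Levels are therefore compared between sets as TMM-scaled RPKM, which are counts per kb, scaled to a common library size by TMM within the assay, in units of reads per 1e+06. For footprints the length is that of the counted exons. For mRNA it is the length deposited with the RNA-Seq counts, which is shorter: 41 against 121 bases for Dll3 and 162 against 202 for Notch1.

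At E12.5 the Delta-like ligand Dll1 and the receptors Notch1 and Notch3 dominated the mRNA of the tet lines. On the TMM-scaled RPKM scale the 6 libraries held 260 to 345 for Dll1, 183 to 268 for Notch1, 138 to 173 for Notch3, 43.2 to 128 for Dll3, 21.6 to 31.8 for Notch2, 7.02 to 10.3 for Jag1 and 0.721 to 1.44 for Jag2. The order was the same in all 6 libraries, and the place of Dll3 in it depends on the deposited length of 41 bases. The ranges of Dll1 and Notch1 overlapped, while those of the other neighbours in this order did not, although the gaps from Notch1 to Notch3 and from Notch3 to Dll3 were smaller than the spread of each gene over the libraries. In footprints the order was different: Notch1 led with 385 to 538, ahead of Dll1 with 185 to 243. Footprints of Jag2 were 0 to 5 reads per library, too few for a translation value.

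**Figure D1:**
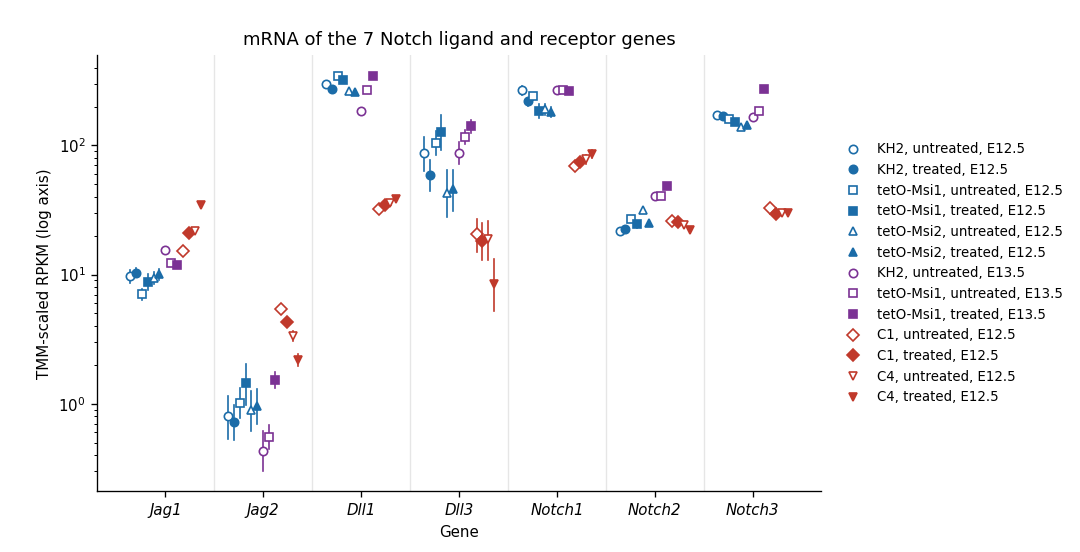
mRNA level (TMM-scaled RPKM, log axis) of the 7 genes in each of the 13 RNA-Seq conditions, 1 point per condition with its 95% counting interval. Dll1, Notch1 and Notch3 lie high in the tet lines and lower in C1 and C4, while Jag1 and Jag2 lie low in the tet lines of E12.5 and higher in C1 and C4.

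In untreated cells, Dll1, Dll3, Notch1 and Notch3 mRNA was lower, and Jag1 and Jag2 mRNA higher, in the floxed lines than in the tet lines. The comparison of untreated C1 and C4 with untreated KH2, tetO-Msi1 and tetO-Msi2 at E12.5 used edgeR's quasi-likelihood test with Benjamini-Hochberg adjustment over all genes, and lines served as the repeats. All 7 members were tested and 6 were called at an adjusted p below 0.05, 2 higher and 4 lower in the floxed lines. The same test called 66.3% of all 12211 genes, 33.0% higher and 33.3% lower, so that being called was common. The median log2 difference was -1.66 over the members and 0.00 over all genes.

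Dll1, the ligand that activates Notch in neighbouring cells of the cortex, differed most. Its mRNA level was 299 TMM-scaled RPKM in untreated KH2, 345 in tetO-Msi1 and 264 in tetO-Msi2 cells, against 32.3 in C1 and 35.9 in C4 cells. No floxed library came near a tet library, although the share of all genes with sets apart in this way is not given here. The log2 difference was -3.15 (SE 0.15, edgeR quasi-likelihood, adjusted p = 2.4e-05), or 8.90-fold lower in the floxed lines. Notch3, the receptor also known from vascular smooth muscle and pericytes, stood at 173, 159 and 138 TMM-scaled RPKM in the same tet lines and at 32.8 and 29.98 in C1 and C4 cells. Its groups were likewise apart, by -2.33 on the log2 scale (SE 0.13, edgeR adjusted p = 3.35e-05), 5.01-fold lower. Dll3 was 4.02-fold lower (log2 -2.01, SE 0.43, edgeR adjusted p = 0.00593), with 43.2 to 104 TMM-scaled RPKM in the tet lines and 18.7 and 20.5 in the floxed lines. Notch1, measured over a single exon, was 3.16-fold lower (log2 -1.66, SE 0.17, edgeR adjusted p = 0.00024), with 191 to 268 against 69.9 and 77.8.

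The Jagged ligands went the other way. Jag2 mRNA was 0.798, 1.02 and 0.896 TMM-scaled RPKM in the untreated tet lines and 5.37 and 3.35 in C1 and C4 cells, a log2 difference of 2.25 (SE 0.27, edgeR adjusted p = 0.000461) or 4.77-fold. Jag1 mRNA was 9.66, 7.02 and 9.40 in the tet lines against 15.2 and 21.7 in the floxed lines, a log2 difference of 1.09 (SE 0.20, edgeR adjusted p = 0.00312) or 2.12-fold. Neither gene overlapped between the sets, again without a share over all genes to set it against. Notch2 did not pass the test, with 21.6 to 31.8 TMM-scaled RPKM in the tet lines, 24.3 and 26.2 in the floxed lines and a log2 difference of -0.09 (SE 0.16, edgeR adjusted p = 0.649). Line set cannot be told apart from the difference in scale between the tet and floxed libraries given above.

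Marker levels moved along with this contrast. Over the treated and untreated libraries, the summed TMM-scaled RPKM of the 6 measured markers of glia was 495 to 736 in the tet lines at E12.5 and 1350 to 1577 in the floxed lines. Most of that sum was Olig2 (433 to 572 and 715 to 1006) and Gfap (0 to 6.30 and 173 to 473), and Aqp4 and S100b were also higher. The ranges of Sox10 (10.8 to 42.8 and 8.36 to 29.6) and Pdgfra (9.95 to 56.7 and 25.3 to 50.5) overlapped. The sum over 7 neuronal markers was 770 to 817 and 365 to 416. The 6 pericyte and mesenchymal markers summed to 8.61 to 40.8 and 138 to 388, nearly all of it Acta2 (6.24 to 38.6 and 133 to 386). The pericyte marker Pdgfrb was at 0 to 0.128 and 0 to 0.166, and Col1a1 at 1.29 to 2.22 and 0.656 to 1.97. The 6 measured neural stem markers, which define the labelled cell type, summed to 12403 to 16563 and 15922 to 17075, mostly from Fabp7 and Vim. Single markers moved in opposite directions: Sox2 was at 1046 to 1426 in the tet lines and 528 to 625.2 in the floxed lines, Prom1 at 11.3 to 17.5 and 2.80 to 6.996, and Nes at 127 to 246 and 469 to 486. The 5 endothelial markers never summed above 1.09 and the 3 measured microglial and blood markers never above 0.354, with Cx3cr1 at 0 reads throughout. The part of these cell types in the member differences was not tested, and in such bulk samples fewer cells of a type and less RNA per cell cannot be told apart.

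The same contrast in footprints, chosen after the data were seen, compared untreated C1 and C4 with untreated KH2 and tetO-Msi1 cells. edgeR called 6 of 7 members, all lower in the floxed lines, against 31.7% of all 12097 genes. Dll1 footprints were 185 and 243 TMM-scaled RPKM in KH2 and tetO-Msi1 and 10.4 and 19.2 in C1 and C4 cells, a log2 difference of -3.99 (SE 0.32, edgeR adjusted p = 1.35e-05). Notch3 footprints were 126 and 114 against 9.01 and 8.38 (log2 -3.88, SE 0.24, edgeR adjusted p = 5.86e-06). For each of these genes the 2 sets did not overlap, and the share of all genes that did likewise is not given here. The differences of Dll3 (-3.94), Notch1 (-2.41) and Notch2 (-1.01) were called as well, at edgeR adjusted p of 0.000562, 7.08e-05 and 0.00497. Jag2 had a log2 difference of 1.00 (SE 1.05, edgeR adjusted p = 0.503). Jag1 footprints, at -1.67 (SE 0.47, edgeR adjusted p = 0.0201), rested on untreated tetO-Msi1 cells alone: without that library the difference was -0.17 (edgeR adjusted p = 0.826), and with all 4 libraries DESeq2 gave an adjusted p of 0.222.

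**Figure D2:**
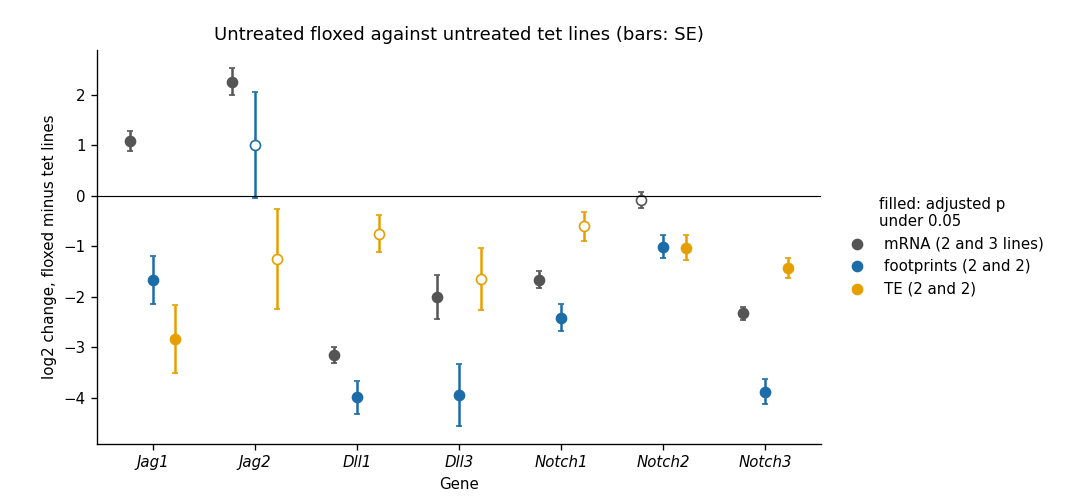
Log2 difference of untreated floxed minus untreated tet lines at E12.5 for each of the 7 genes, in mRNA, footprints and TE, with bars of 1 standard error from edgeR and filled points where the adjusted p was under 0.05. In mRNA 4 filled points lie below 0 and those of Jag1 and Jag2 above it, in footprints 6 lie below 0, and in TE those of Jag1, Notch2 and Notch3 do.

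Translational efficiency (TE) is the footprint RPKM of a gene divided by its mRNA RPKM. In an edgeR model over both assays of the same 4 untreated lines, also chosen after the data were seen, TE was lower in the floxed lines for 3 of 7 members, against 8.20% of all 10542 genes called in either direction. These were Notch3 (log2 -1.44, SE 0.20, adjusted p = 0.00252), Notch2 (-1.03, SE 0.24, adjusted p = 0.0309) and Jag1 (-2.84, SE 0.66, adjusted p = 0.03), all by edgeR's quasi-likelihood test. Without KH2 the adjusted p of Notch3 was 0.0905, and without tetO-Msi1 it was 0.0997, with log2 values of -1.41 and -1.47. That of Notch2 was 0.23 without KH2, 0.21 without tetO-Msi1 and 0.0986 without C1. Jag1 was at -1.10 (edgeR adjusted p = 0.324) without tetO-Msi1. Leaving out KH2 or tetO-Msi1 cut the calls over all genes from 864 to 73 and 62.

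Within the tet lines at E12.5, the members' mRNA changed little with Dox. Fold changes were called at 2-fold or more on the log2(RPKM + 0.5) scale where the pair's mean RPKM was 1 or more, since each condition was a single library and gives no test. None of the 6 members that passed the filter reached 2-fold in KH2, tetO-Msi1 or tetO-Msi2 cells, where 0.0984%, 0.354% and 0.387% of all genes did. Jag2 lay below the filter in each. Jag1 mRNA was 1.51 and 1.56 RPKM without and with Dox in KH2 cells, 1.07 and 1.35 in tetO-Msi1 cells and 1.43 and 1.57 in tetO-Msi2 cells. The log2 change of Jag1 was 0.33 in tetO-Msi1 cells (95% counting interval 0.07 to 0.58), which exceeded that in KH2 cells by 0.27 (-0.04 to 0.59), an interval that includes 0. Counting intervals cover counting error only.

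Notch1 mRNA went down with Dox beyond counting error in KH2 and tetO-Msi1 cells. It went from 41.8 to 33.2 RPKM in KH2 cells, from 36.7 to 28.7 in tetO-Msi1 cells and was 29.1 and 28.4 in tetO-Msi2 cells, a log2 change of -0.03 (-0.22 to 0.15). The decrease was therefore also present in the line without a Musashi cDNA. Over the 3 lines as repeats the log2 change was -0.24 (SE 0.10, edgeR quasi-likelihood, unadjusted p = 0.0332, adjusted p = 0.317). By that test 0 of 7 members were called, against 0.451% of all 11969 genes, and Notch1 was the only member with an unadjusted p below 0.05. DESeq2 and limma also called 0 members. Notch2 mRNA went from 4.83 to 3.89 RPKM with Dox in tetO-Msi2 cells, a log2 change of -0.31 (-0.40 to -0.23), while it was 3.37 and 3.44 RPKM in KH2 cells. The change in tetO-Msi2 cells was lower than that in KH2 cells by a log2 difference of -0.34 (-0.47 to -0.22).

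At E13.5, Notch3 and Dll1 mRNA rose with Dox in tetO-Msi1 cells beyond counting error. Again 0 of the 6 members above the filter reached 2-fold, against 0.916% of all genes. Notch3 mRNA was 51.8 RPKM untreated and 80.9 with Dox, a log2 change of 0.64 (0.63 to 0.66) or 1.56-fold, where the median of all genes was 0.08. At E12.5 the same line had 24.3 and 23.2 RPKM, a log2 change of -0.07. Dll1 mRNA went from 75.5 to 102 RPKM at E13.5, a log2 change of 0.43 (0.41 to 0.45), and from 52.8 to 49.4 RPKM at E12.5. The rise of both genes was thus seen at the later stage and not at the earlier. Notch2 went from 11.4 to 14.3 RPKM at E13.5 (log2 0.33) and Dll3 from 31.9 to 41.8 RPKM (log2 0.39). No Dox-treated KH2 library of E13.5 was analysed here, so a Dox effect and a Msi1 effect cannot be told apart at that stage.

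Over both stages of tetO-Msi1 cells, edgeR called 1 of 7 members, against 3.60% of all 11938 genes. That member was Jag2, a Jagged ligand expressed here at a very low level. Its mRNA was 0.155 RPKM (58 reads) untreated and 0.222 RPKM (32 reads) with Dox at E12.5. At E13.5 it was 0.192 RPKM (35 reads) and 0.139 RPKM (56 reads) in the untreated technical replicates and 0.453 RPKM (207 reads) with Dox. Both treated libraries were above their untreated ones, and the E13.5 difference was the larger. The fitted log2 change was 1.07 (SE 0.31, edgeR adjusted p = 0.0252). The other 6 members had log2 changes between -0.18 and 0.28 and were not called. The Jag2 call did not hold with DESeq2 (adjusted p = 0.567) or when the Dox response of KH2 cells at E12.5 was subtracted (log2 1.06, edgeR adjusted p = 0.957). It was also lost with technical replicate 1 alone (log2 0.86, edgeR adjusted p = 0.155) and without stage as a term (log2 0.92). In fits without that term, leaving out a library gave a log2 change of 0.54 without untreated E13.5, 0.91 without treated E13.5, 0.93 without treated E12.5 and 1.44 without untreated E12.5, none of them called.

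The stage comparison of untreated KH2 and tetO-Msi1 cells called 3 of 7 members, against 50.8% of all 11893 genes. Jag1 mRNA was 9.66 and 7.02 TMM-scaled RPKM at E12.5 and 15.4 and 12.3 at E13.5, a log2 change of 0.72 (SE 0.13, edgeR adjusted p = 0.00112). Notch2 mRNA was 21.6 and 27.0 at E12.5 and 40.6 and 40.9 at E13.5 (log2 0.74, SE 0.12, edgeR adjusted p = 0.000489). Dll1 mRNA was lower at E13.5 in each line, at 185 against 299 in KH2 and 270 against 345 in tetO-Msi1 cells (log2 -0.54, SE 0.11, edgeR adjusted p = 0.00247). Jag1 and Notch2 were therefore higher, and Dll1 lower, at the later stage in both lines. Jag2 was lower in each line and did not pass the test (log2 -0.89, SE 0.35, edgeR adjusted p = 0.0532). Leaving out a library, in a fit without line as a term, ended the edgeR call of Jag1 without tetO-Msi1 of E12.5 (log2 0.47, adjusted p = 0.205), of Notch2 without KH2 of E12.5 (0.55, adjusted p = 0.0698) and of Dll1 without KH2 of E12.5 (-0.65), KH2 of E13.5 (-0.27) or tetO-Msi1 of E12.5 (-0.44). Stage cannot be told apart from the difference in scale of deposited RPKM between the E12.5 and E13.5 libraries. The untreated libraries are shared between this and the preceding comparisons.

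Jag1 had by far the largest TE change of the members with Dox in tetO-Msi1 cells. Most of it came from lower footprints (log2 -2.34) and a smaller part from higher mRNA (log2 0.33). Jag1 footprints were 4.97 RPKM (511 reads) in untreated and 0.980 RPKM (30 reads) in Dox-treated tetO-Msi1 cells, 5.08-fold lower with Dox. In KH2 cells they were 1.06 RPKM (42 reads) untreated and 0.853 RPKM (36 reads) with Dox. The untreated tetO-Msi1 library was high and the other 3 were alike and low. TE was 4.63 untreated and 0.728 with Dox in tetO-Msi1 cells, and 0.703 and 0.546 in KH2 cells. The log2 TE change was -2.67 in tetO-Msi1 cells (95% counting interval -3.26 to -2.08), 6.36-fold lower, and -0.36 in KH2 cells (-1.04 to 0.31). The changes of the lines differed by -2.30 (-3.20 to -1.41), which is beyond counting error, although no replicate library exists to set it against.

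**Figure D3:**
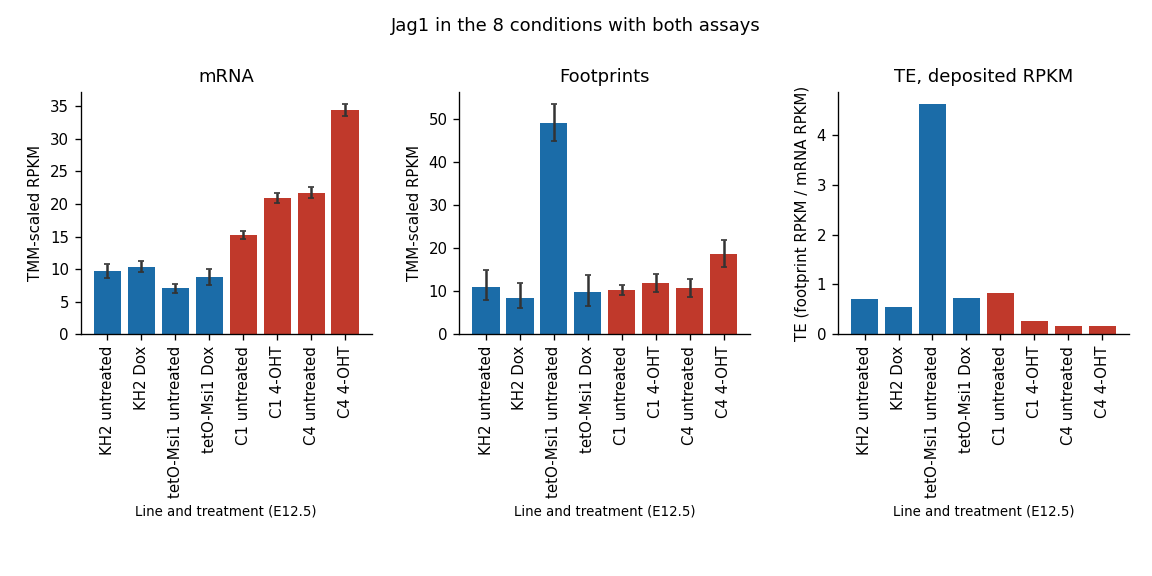
Jag1 mRNA and footprints (TMM-scaled RPKM) and TE (ratio of deposited RPKM) in the 8 conditions with both assays, 1 bar per condition, with 95% counting intervals on the first 2 measures, tet lines in blue and floxed lines in red. The footprints and the TE of untreated tetO-Msi1 cells, at 49.1 and 4.63, stand above those of all other conditions, while Jag1 mRNA there was the lowest of the 8, at 7.02.

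Which control is used decides this result in the Ribo-Seq data. The study also reported, by Western blot, less JAG1 protein with Msi1 or Msi2 overexpression and more in double knockout cells. It further reported that a reporter with the Jag1 3′ UTR rose with MSI1 knockdown in human cells. Those measures were not analysed here. Dox-treated tetO-Msi1 cells had a Jag1 TE of 0.728 against 0.546 in Dox-treated KH2 cells, a log2 difference of 0.41 (-0.32 to 1.15), and against 0.703 in untreated KH2 cells, a log2 difference of 0.05. Untreated tetO-Msi1 cells exceeded untreated KH2 cells by 2.72 on the log2 scale (2.22 to 3.22), although both were without Dox. The library of untreated tetO-Msi1 cells had a Jag1 footprint level 4.69-fold above the highest of the other 3 tet libraries, and the TE of Jag1 was at percentile 98.7 of all genes there and at 85.4 to 91.8 in the other 3. Being that far above was rare: 5 of 7242 genes, or 0.0690%, were at least 3-fold above all other 3 libraries in it, and 10, 10 and 11 genes were so in each of the other 3.

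The 4 other genes of that group were Tmco1, Dhx37, Psmd14 and Rbm22, named after their values were seen. Dhx37 and Rbm22 are, with Jag1, the genes that the study named as having reduced TE on Msi1 overexpression. Tmco1, a calcium channel of the endoplasmic reticulum, had 336650 reads in untreated tetO-Msi1 cells against 87, 53 and 50 in the other 3 libraries. Dhx37, an RNA helicase of ribosome assembly, had 2036 against 27, 23 and 13, and Rbm22, a splicing factor, had 666 against 55, 61 and 46. Psmd14, a deubiquitinase of the proteasome lid, had 263 against 16, 7 and 9. The files give counts per gene, so where in Jag1 the 511 reads lay was not tested, and the part of single repeated fragments in the value was not tested.

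The other members showed no TE change beyond counting error with Dox in tetO-Msi1 cells before centring. A gene entered with over 5 reads in each of the 4 libraries and mRNA that moved less than 1.5-fold, and it was counted where TE moved 3-fold or more. In tetO-Msi1 cells 1 of the 6 members that passed, Jag1, reached it, against 1.29% of all genes, and in KH2 cells 0 of 5 did, against 1.10%. Notch3 TE was 0.474 untreated and 0.477 with Dox in tetO-Msi1 cells, a log2 change of 0.01 (-0.12 to 0.14). This was the most precisely counted member, with 2255 and 645 footprint reads. Notch1 changed by 0.12 (-0.32 to 0.56), Dll1 by -0.15 (-0.32 to 0.02), Dll3 by -0.18 (-1.19 to 0.84) and Notch2 by -0.24 (-0.48 to 0.01). Each of these intervals includes 0 and lies within 3-fold. After centring on the median of all genes, those of Dll1 (-0.20, -0.37 to -0.03) and Notch2 (-0.28, -0.53 to -0.04) no longer included 0. In KH2 cells Dll1 TE went from 0.382 to 0.533, a log2 change of 0.48 (0.29 to 0.67) where the median of all genes was 0.14, and the difference between the lines in this change was -0.63 (-0.89 to -0.38).

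**Figure D4:**
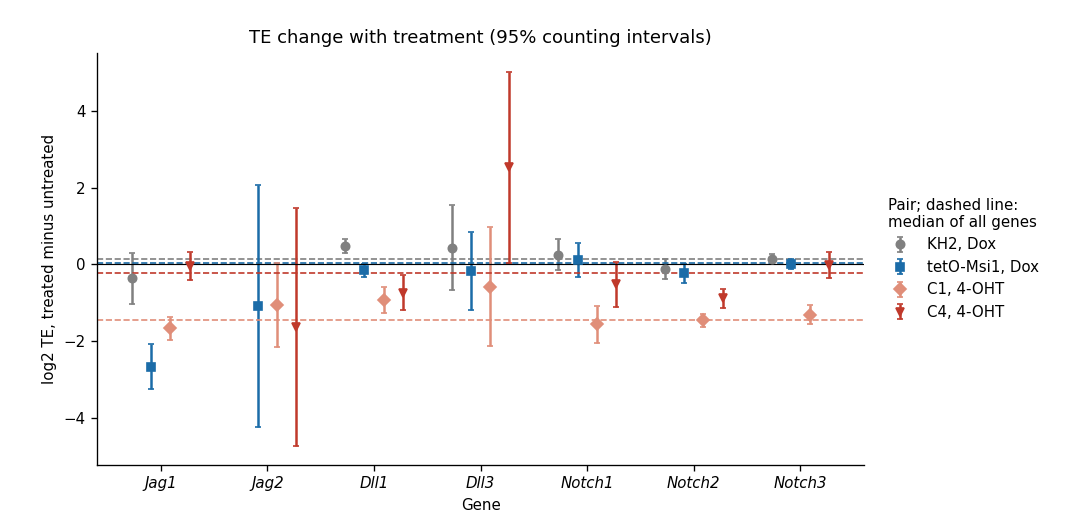
Log2 TE change with Dox in KH2 and tetO-Msi1 cells and with 4-OHT in C1 and C4 cells for the members, with 95% counting intervals and dashed lines at the median of all genes in each pair, members below the read or mRNA limits included. Jag1 in tetO-Msi1 cells lies at -2.67, below the other members of that pair, and the members in C1 cells lie between -1.67 and -0.58, where the pair's median was -1.46.

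With 4-OHT, Jag1 mRNA rose in both floxed lines, and more in the line with CreER. It was 4.99 RPKM (2286 reads) untreated and 6.83 RPKM (2772 reads) treated in C1 cells, and 6.95 RPKM (2600 reads) and 11.5 RPKM (5198 reads) in C4 cells. Both treated libraries were above their own untreated library, while the treated C1 library was below the untreated C4 library. The log2 change was 0.45 (0.37 to 0.53) in C1 cells and 0.73 (0.67 to 0.80) in C4 cells. The C4 change exceeded that of C1 by 0.28 (0.18 to 0.38), and by 0.21 after each pair was centred on its median. Over both lines the log2 change was 0.56 (SE 0.08, edgeR quasi-likelihood, adjusted p = 0.00784). The call was lost without line as a term (log2 0.58, edgeR adjusted p = 0.609) and, in fits without that term, with any library left out, when the log2 change was 0.18 without treated C4, 0.35 without untreated C1, 0.86 without untreated C4 and 0.90 without treated C1. Jag1 was the 1 member called of 6 tested, against 5.50% of all 11626 genes, and Dll3 was below the count filter. None of the 7 members in C1 cells and of the 6 above the filter in C4 cells reached 2-fold in mRNA on the log2(RPKM + 0.5) scale, against 0.110% and 1.14% of all genes. Dll3 in C4 cells fell short of 2-fold with that pseudocount and passed it without, at 2.10-fold lower.

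Jag2 mRNA was lower with 4-OHT in both lines, going from 1.76 to 1.40 RPKM in C1 cells and from 1.07 to 0.733 in C4 cells, and did not pass the test over both (log2 -0.47, SE 0.14, edgeR adjusted p = 0.0937). Dll3 mRNA was 5.998 RPKM (35 reads) untreated and 2.85 RPKM (20 reads) treated in C4 cells, a log2 change of -1.07 (-1.87 to -0.28). That in C1 cells was -0.16 (-0.78 to 0.45), and the difference of -0.91 (-1.91 to 0.09) was within counting error. Notch3 mRNA moved in opposite directions, by -0.17 in C1 and 0.08 in C4 cells, a difference of 0.25 (0.19 to 0.31). The other mRNA changes with 4-OHT were 0.09 and 0.20 for Notch1, 0.10 and 0.16 for Dll1 and -0.03 and -0.07 for Notch2, in C1 and C4 cells respectively.

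In footprints, 4-OHT went with more Jag1 and less Notch2 in C4 cells. Jag1 footprints were 10.2 and 11.8 TMM-scaled RPKM without and with 4-OHT in C1 cells (log2 0.21, -0.08 to 0.50) and 10.6 and 18.6 in C4 cells (log2 0.81, 0.44 to 1.17). Its TE in C4 cells was 0.159 and 0.154, so that footprints and mRNA rose together. Notch2 footprints were 21.4 and 20.5 TMM-scaled RPKM in C1 cells (log2 -0.06, -0.22 to 0.11) and 26.4 and 14.8 in C4 cells (log2 -0.84, -1.08 to -0.59). Treated C4 was the lowest Notch2 library of the 8. The TE of Notch2 in C4 cells changed by -0.88 (-1.13 to -0.63), and by -0.65 (-0.90 to -0.40) after centring on the median of all genes, which was -0.23. Dll1 footprints went up in C1 cells (10.4 to 15.6 TMM-scaled RPKM, log2 0.59, 0.25 to 0.94) and down in C4 cells (19.2 to 13.9, log2 -0.46, -0.90 to -0.02).

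Counted as above, a 3-fold TE change with 4-OHT was reached by 1 of 7 members in C1 cells, against 38.5% of all genes, and by 0 of 4 in C4 cells, against 2.60%. The member was Jag1, with a TE of 0.816 untreated and 0.257 treated in C1 cells (log2 -1.67). The median of all genes in that pair was -1.46, and after centring the Jag1 change was -0.21 (-0.51 to 0.09). The share of the reads behind RPKM that were in counted exons was 28.5% in the untreated and 11.2% in the treated C1 footprint library. In KH2 cells that share went from 32.1% to 12.3% with Dox, with a TE median of 0.14. These pairs are not alike, since single genes held 66.7% and 17.9% of the KH2 counts without and with Dox. In C1 cells the top gene held 0.997% and 1.26% of the counts without and with 4-OHT. The part of the share in the C1 shift was not tested.

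**Figure D5:**
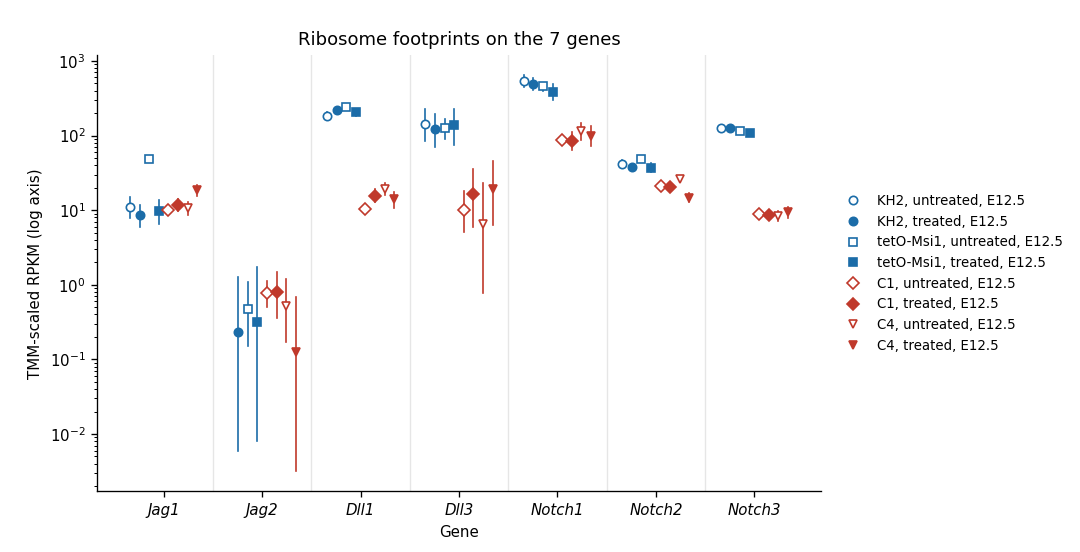
Footprint level (TMM-scaled RPKM, log axis) of the members in each of the 8 Ribo-Seq libraries, 1 point per library with its 95% counting interval, apart from Jag2 in untreated KH2 cells, which had 0 reads. Dll1, Notch1 and Notch3 lie lower in the 4 floxed libraries than in the 4 tet libraries, and Jag1 in untreated tetO-Msi1 cells, at 49.1, lies above Jag1 in the other 7 libraries.

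Other genes of the pathway were taken from a list of 39, with ligands and receptors outside the 7 members, the enzymes that modify or ubiquitinate them, and the nuclear partners and targets of Notch. Between floxed and tet lines, edgeR called 9 higher and 16 lower in mRNA of 34 tested, where 33.0% and 33.3% of all genes were called in each direction. The target Hes5 (log2 -4.90), the feedback inhibitor Nrarp (-3.39) and the DNA-binding partner Rbpj (-1.33) were among the lower ones, as were the glycosyltransferase Mfng (-4.31) and the ubiquitin ligase Neurl1b (-4.17). Among the higher ones were the non-canonical ligands Dlk1 (2.66) and Dlk2 (4.50). The protease Adam10 (0.75), the glycosyltransferases Poglut1 (0.73) and Lfng (0.57) and the ubiquitin ligase Mib1 (0.37) were also higher. The target Hes1 overlapped between the sets. It was at 69.6, 62.7 and 120 TMM-scaled RPKM in untreated KH2, tetO-Msi1 and tetO-Msi2 cells and at 65.6 and 89.1 in untreated C1 and C4 cells. For footprints the counts were 4 higher and 9 lower of 33, where 31.7% of all genes were called, and for TE 0 higher and 4 lower of 30, where 8.20% were. The 4 were the ligand ubiquitin ligases Mib1 (log2 -1.58) and Mib2 (-1.90), the coactivator Maml2 (-0.84) and Numbl (-1.35), a relative of the Notch antagonist Numb. The median log2 difference over the list was -0.28 in mRNA, -0.19 in footprints and 0.20 in TE, so that the TE median had the opposite sign to the 4 TE calls.

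Treatment and stage moved fewer of these genes. For Dox over both stages of tetO-Msi1 cells, edgeR called 2 of 34 higher, Neurl1b (0.64) and Nrarp (0.53), and 0 lower, against 3.60% of all genes. Neurl1b went from 24.6 to 57.6 TMM-scaled RPKM at E13.5 but was 21.2 and 20.4 without and with Dox at E12.5, whereas Nrarp was higher with Dox at both (251 to 299 and 145 to 251). Dox over the 3 lines of E12.5 moved 0 of 34 by the same test, against 0.451%. With 4-OHT, Lfng (0.48), a glycosyltransferase that modifies Notch receptors, and Maml2 (0.39) were higher and Numbl (-0.70) lower of 32 tested, against 5.50% of all genes. The stage comparison called 6 higher and 13 lower of 33, against 50.8%. A TE change of 3-fold was reached by 0 of 25 list genes in KH2, 0 of 22 in tetO-Msi1 and 0 of 19 in C4 cells, and by 5 of 23, all lower, in C1 cells, where the whole pair was shifted. The shares of all genes were 1.10%, 1.29%, 2.60% and 38.5% in the same order. The remaining receptor, Notch4, was at 0.0463 to 0.128 RPKM, and the endothelial ligand Dll4 at 0.0353 to 0.318 RPKM.

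For each member the genes most alike in mRNA were sought by Pearson's r of log2 RPKM over the 13 conditions among 10849 genes, a description only, since the points share line sets and the scale of the sets. Dll1 was most like Jarid2 (r = 0.994), Notch3 like Dyrk1b (r = 0.987), Notch1 like Slc27a1 (r = 0.982) and Dll3 like 2810055G20Rik (r = 0.972). For Notch2 the highest was Eps15l1 (r = 0.990, and 0.915 on TMM-scaled values). Jag1 was most like Wwtr1 (r = 0.986), but on TMM-scaled values that r was 0.526, whereas Fam195a kept 0.937. Jag2 was below the level set for this measure.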

How the data were processed

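RNA-Seq of poly(A) RNA and Ribo-Seq of ribosome-protected fragments were mapped by the authors to mm9 (NCBIM37), with Bowtie and TopHat named in the submitters' processing notes and no version given. The authors deposited, per gene, counts of reads in constitutive coding exons and RPKM values made from them, without pooling of libraries. Summed counts were 7889966 to 60791605 per RNA-Seq condition and 657288 to 6381242 per Ribo-Seq library. Groups followed the labels. The 2 technical replicates were summed as counts and averaged as RPKM.

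Counts were tested across all genes with edgeR 4.0.16 in R 4.3.3 (quasi-likelihood, TMM, genes reaching a CPM of 1 in 2 or more libraries, Benjamini-Hochberg, threshold 0.05). Line, or stage for tetO-Msi1 over both stages, was a term in each test of treatment or stage, and none was used between line sets. Lines or stages stand in for replicates, and where cultures are single the p-values measure only the spread between these libraries. Alternatives used DESeq2 1.42.0, limma 3.58.1, other filters, scalings, controls and leaving out each library. The counting script was tested on simulated data. Single libraries were compared by ratios with 95% counting intervals, which take reads as independent molecules, although PCR copies are not. The TE limits followed the study's methods. All 7 members were named, and other pathway genes were named where they were called or stood beside a member. The members, gene lists and comparisons were chosen with earlier results of these data known.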

Additional observations from a re-analysis of the deposited data

Results flagged for a closer look

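Jag1 footprints in untreated tetO-Msi1 cells, at 49.1 TMM-scaled RPKM, lay far from the other tet libraries of E12.5, whose highest was 11.05 and lowest 8.50. The gap to the nearest library was 0.937 of the whole range. The 4 libraries differ in line and treatment, 28 such sets were looked at, and about 1 in 20 sets is marked by chance. The part of single repeated fragments was not tested.

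Other members moved in opposite directions in paired contrasts, on TMM-scaled counts and with 1 library per condition, so none of these differences was tested between replicates. With Dox in tetO-Msi1 cells, Dll1 mRNA changed by -0.10 on the log2 scale at E12.5 and by 0.35 at E13.5. Notch2 mRNA changed by -0.14 and 0.23, and Notch3 mRNA by -0.078 and 0.56. Dll1 footprints changed by 0.24 with Dox in KH2 cells and by -0.25 in tetO-Msi1 cells. With 4-OHT they changed by 0.59 in C1 cells and by -0.46 in C4 cells.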

How the results depend on the processing

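The Jag1 TE change in tetO-Msi1 cells depended on the control: against treated KH2 cells it was 0.41 and against untreated KH2 cells, a control added after the data were seen, 0.050, in place of -2.67. Members called with Dox over both stages fell from 1 to 0 with DESeq2, with the KH2 response subtracted, without stage as a term, with technical replicate 1 alone and, in fits without that term, with any library left out (range 0 to 0). For 4-OHT the count of 1 became 0 without line as a term and 0 with any library left out, and 2, with Jag2, without the filter on low counts. Without a term for the pair, the counts over all genes were 0 (Dox over both stages), 0 (4-OHT) and 0 (Dox over the 3 lines), against 430, 639 and 54. For Dox over both stages, all-gene counts were 104 with DESeq2 and 1 with the KH2 response subtracted. Without the filter they were 1254 for 4-OHT and 437 for Dox over the 3 lines, which also gave 510, 96 and 24 without KH2, tetO-Msi1 and tetO-Msi2. The stage comparison called 1 to 4 members when a library was left out, and 2139 to 5503 genes. The 6 members called in mRNA between line sets were called under every alternative run. The TE comparison of line sets called 0 to 4 members when a line was left out, and 1441 genes with DESeq2 and 1684 without C4 against 864. Footprint calls over all genes fell from 3829 to 2347 without tetO-Msi1. A 2-fold limit gave 6 TE changes in place of 2, and centring on the pair's median gave 1. The mRNA count of 0 became 1 with a pseudocount of 0.1, 3 at a limit of 1.5-fold and 1 with centring. Of 28 tests of members that were not called, 14 changed sign and 3 were called under some alternative. Depth limits Dll3 and Jag2, which had 2 to 43 and 0 to 26 footprint reads per library.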
